A study of Homo sapiens with 6 samples.

Results

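The NF-kB subunits and their inhibitors were read by 21 probe sets for 10 genes, out of 49293 probe sets and 18132 genes measured. The genes were the subunits NFKB1, NFKB2, RELA, RELB and REL, the IkB inhibitors NFKBIA, NFKBIB and NFKBIE, the ubiquitin-editing enzyme TNFAIP3 and the adaptor TRAF1. Each probe set paired with exactly 1 of these symbols was taken, and 0 further probe sets named a member beside another gene. The genes were chosen by how the same knockdown and control arrays had differed, so their differences between the groups are given as a description and calls among them support nothing. The study profiled total RNA on 6 Affymetrix arrays. The control group held 3 arrays of untreated A375 cells, a human melanoma line, and the knockdown group held 3 arrays of untreated A375 cells that stably expressed a short hairpin RNA against the kinase MAP4K5. The vector of the control cells, and whether the knockdown line was a clone or a pool, were not given in the sources used here. Probe sets whose IDs end in _x_at or _s_at can bind transcripts other than their target and are called non-unique. The arrays are labelled as biological replicates without saying how cultures were separated, so errors and p-values cover only the spread between these arrays.

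NF-kB is a family of dimeric transcription factors built from RelA, RelB, c-Rel, and the p50 and p52 proteins that are cut from the NFKB1 and NFKB2 products. In resting cells IkB proteins hold the dimers in the cytoplasm. Signals from TNF, interleukin-1 and Toll-like receptors pass through adaptors and ubiquitin chains to the IKK kinases, which mark IkB for destruction and free the dimers. Several genes of the pathway, among them NFKBIA and TNFAIP3, are themselves targets of NF-kB and feed back on it. Melanoma cells are known for NF-kB activity and for secreting chemokines under its control. MAP4K5 is a germinal centre kinase that acts from TNF receptor adaptors towards JNK.

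Sequence just before the transcription start is shown for the member that was higher in knockdown cells, TNFAIP3, for the brightest member that was lower, NFKB1, and for NFKBIA, whose brightest probe set did not separate the groups. Each run is the 250 bases before the start in RefSeq, build GRCh38.p14, written 5′ to 3′ on the strand of the gene. Capitals mark matches to the κB consensus, the DNA motif that NF-kB dimers bind, on either strand.
TNFAIP3 (chr6:137867009-137867258, plus strand): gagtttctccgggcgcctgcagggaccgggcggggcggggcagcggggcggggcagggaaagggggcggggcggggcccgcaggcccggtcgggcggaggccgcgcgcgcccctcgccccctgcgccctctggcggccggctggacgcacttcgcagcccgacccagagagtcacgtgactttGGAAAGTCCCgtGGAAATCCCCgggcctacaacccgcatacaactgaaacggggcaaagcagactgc
NFKB1 (chr4:102501109-102501358, plus strand, the first of 2 start entries): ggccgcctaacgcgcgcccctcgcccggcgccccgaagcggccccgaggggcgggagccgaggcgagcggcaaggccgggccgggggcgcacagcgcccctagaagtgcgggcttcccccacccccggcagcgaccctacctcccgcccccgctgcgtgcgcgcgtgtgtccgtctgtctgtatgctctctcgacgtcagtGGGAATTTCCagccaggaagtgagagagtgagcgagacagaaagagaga
NFKBIA (chr14:35404750-35404999, minus strand): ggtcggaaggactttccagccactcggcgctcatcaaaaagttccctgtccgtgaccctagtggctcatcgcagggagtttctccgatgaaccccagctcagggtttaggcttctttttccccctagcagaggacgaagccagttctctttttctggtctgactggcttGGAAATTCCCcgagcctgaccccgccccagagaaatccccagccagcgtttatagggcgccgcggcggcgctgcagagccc
TNFAIP3 held 2 matches, from 67 to 58 and from 55 to 46 bases before its start. NFKB1 held 1 match, from 49 to 40 bases before the start shown, and the window of its second start entry held 0. NFKBIA held 1, from 81 to 72 bases before its start. So the member that was higher, a member that was lower and a member with no shared direction each carried the motif within 100 bases of the start shown.

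Of the 10 members, 8 had RefSeq start entries, 15 in all, and overlapping matches were counted by position. A match lay in at least 1 window of 6 of these 8 genes, NFKB1, NFKB2, REL, NFKBIA, NFKBIB and TNFAIP3, and in none of the windows of RELA and TRAF1. Of the members' 15 windows, 7 held a match. Over all 27305 genes with an entry, 11.8% had a match in at least 1 window, and over all 35116 windows 9.96% held one. A match is a description of these letters and shows neither binding nor a cause.

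MAP4K5 itself was lower in every knockdown array. Its brightest probe set measured 77.7, 78.1 and 76.3 in the controls and 19.7, 18.8 and 20.3 in the knockdown arrays. The log2 fold change, always knockdown minus control here, was -1.98 ± 0.08 (SE of the limma fit, n = 3 each). An exact two-sided permutation test gave p = 0.1 at each of its 3 probe sets, and groups of 3 cannot give less.

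One control differed from the rest. Over all probe sets, log2 values of control replicate 2 had a correlation of 0.993 with each knockdown array and 0.991 with each other control, while controls 1 and 3 correlated with each other at 0.995. These correlations run across probe sets of the same arrays and are not tests. Member values are therefore given for each array, and the fit without control replicate 2 stands beside many of the members and pathway genes, though not all. The cells carried melanocyte lineage transcripts: MITF measured 50.6 to 79.4 in controls and 115.7 to 121.7 in knockdown arrays, and SOX10 28.3 to 37.7 and 22.1 to 23.7. S100B measured 55.2 to 82.0 and 24.7 to 29.7. In such bulk RNA, fewer cells of a type and less RNA per cell cannot be told apart. The pigment genes PMEL, MLANA and TYR stayed under 4, below the median probe set mean of 4.88. Summed fibroblast markers ran from 24.86 to 25.02 in controls and from 22.0 to 23.5 in knockdown arrays (6 genes), with 5 of the 6 below that median, and 0 of the 6 were called. Summed leukocyte markers ran from 16.1 to 18.1 and from 22.3 to 22.8 (5 genes). LYZ alone of these 5 was called, at 4.78 to 6.53 in controls and 10.1 to 11.1 in knockdown arrays, and PTPRC, CD3E and CD14 were below 3.2 on every array. The probe set of LYZ is non-unique and stood at a log2 fold change of 0.97. Without non-unique probe sets LYZ stood at 0.45 and was still called. In the fit over all probe sets 1 of its 2 was called. Whether the LYZ difference bears on the members' values was not tested.

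TNFAIP3 was the only member higher in knockdown cells at its brightest probe set without overlap, about 3-fold. The subunit genes NFKB1, RELB, RELA and REL, the inhibitor NFKBIE and the adaptor TRAF1 lay lower in all 3 knockdown arrays than in all 3 controls. NFKB2, NFKBIA and NFKBIB overlapped between the groups. Over the 21 probe sets, 2 lay wholly above the controls, where 12.1% of all probe sets did, and 8 wholly below, where 11.7% did. The log2 fold change was below 0 in 16 of the 21, and in 48.8% of all probe sets. The members' median log2 fold change was -0.08 over probe sets, beside 0.00 over all probe sets. At 1 value a gene it was -0.21, beside 0.01 over all genes.

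**Figure D1:**
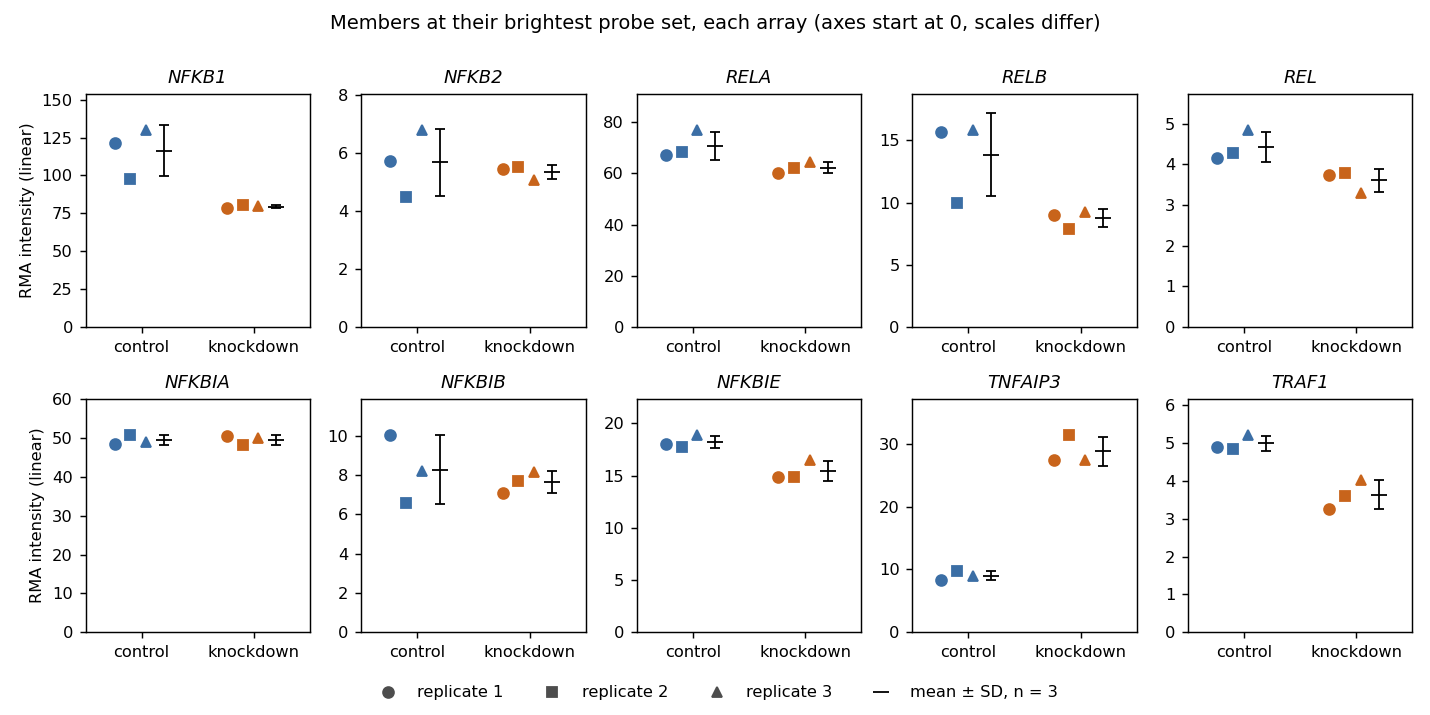
RMA intensity (linear axes from 0, different scale for each gene) of the brightest probe set of each of the 10 members, with 1 point per array, circles, squares and triangles for replicates 1, 2 and 3, blue for control and orange for knockdown, and bars for the mean ± SD (n = 3). TNFAIP3 stands higher in the knockdown arrays, and the squares of NFKB1 and RELB show control replicate 2 between the other controls and the knockdown arrays.

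The threshold for a call was a limma adjusted p under 0.05 over all 49293 probe sets. Among member probe sets 2 were called higher, both of TNFAIP3, and 2 lower, those of NFKB1 and the brightest of TRAF1, while 17 were not called. Over all probe sets 1.98% were called higher and 2.46% lower. Since the same contrast chose the members, nothing is read from these counts. Without control replicate 2, 2 were called higher and 3 lower, RELB being the addition, where 6.51% and 6.88% of all probe sets were called. Without control 1 or 3 or any knockdown array, 0 member probe sets were called lower, with 5 to 7 at an unadjusted p under 0.05 in the 6 fits that left out 1 array. Over all probe sets 7.43% to 12.9% were lower at that threshold in these fits, and nothing is read from the members' counts.

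Among the subunits, NFKB1, which encodes the p105 precursor of p50, measured 121.3, 97.5 and 130.3 in control replicates 1, 2 and 3. The knockdown arrays measured 78.3, 80.3 and 79.7. The 3 knockdown arrays spanned 1.97 units and lay under every control, and control 2 lay nearer to them than to the other controls. The means were 116.3 ± 16.9 and 79.4 ± 1.0 (SD, n = 3 each), a knockdown level at 68.8% of control. On the log2 scale the difference was -0.54 ± 0.12 (SE), -0.66 ± 0.09 without control 2 and -0.30 against control 2 alone.

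RELB, the transactivating partner of p52 in the non-canonical pathway, varied between controls. It measured 15.7, 9.98 and 15.9 in controls and 9.02, 7.91 and 9.26 in knockdown arrays. Control 2 stood 0.72 units above the highest knockdown array and 5.71 below the nearest control. Its log2 fold change of -0.64 ± 0.18 (SE) was not called. It was -0.86 ± 0.10 without control 2 and -0.20 against control 2 alone, so the size of the RELB difference depended on which controls were used.

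RELA, the main transactivating subunit, differed less. Its brightest probe set, a non-unique one, measured 67.1, 68.3 and 77.1 in controls and 60.1, 62.1 and 64.4 in knockdown arrays. The groups did not overlap, with 2.71 units between the lowest control and the highest knockdown array. The difference was -0.19 ± 0.09 (log2, SE), not called, and it was -0.21 without control 2 and -0.14 against it alone. The other 2 probe sets of RELA lay between 2.23 and 3.63 on all arrays, below the median probe set, and their groups overlapped.

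REL, which encodes c-Rel, was dim at both of its probe sets. The brighter measured 4.16, 4.29 and 4.86 in controls and 3.75, 3.79 and 3.29 in knockdown arrays. The other measured 4.28, 3.90 and 4.16, then 3.18, 3.32 and 3.67. Both separated the groups in the same direction, with log2 fold changes of -0.30 ± 0.10 and -0.28 ± 0.09 (SE), and neither was called. With its probe sets averaged, REL stood at -0.29 and passed the threshold, a description since the same contrast chose it. Such values lie near the floor of the arrays, where RMA compresses fold changes.

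NFKB2, which encodes the p100 precursor of p52, had its arrays mixed. It measured 5.74, 4.49 and 6.82 in controls and 5.45, 5.53 and 5.07 in knockdown arrays, so the controls ran both above and below every knockdown array. The difference was -0.07 ± 0.14 (log2, SE), and the sign turned from -0.23 without control 2 to 0.25 against control 2 alone.

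**Figure D2:**
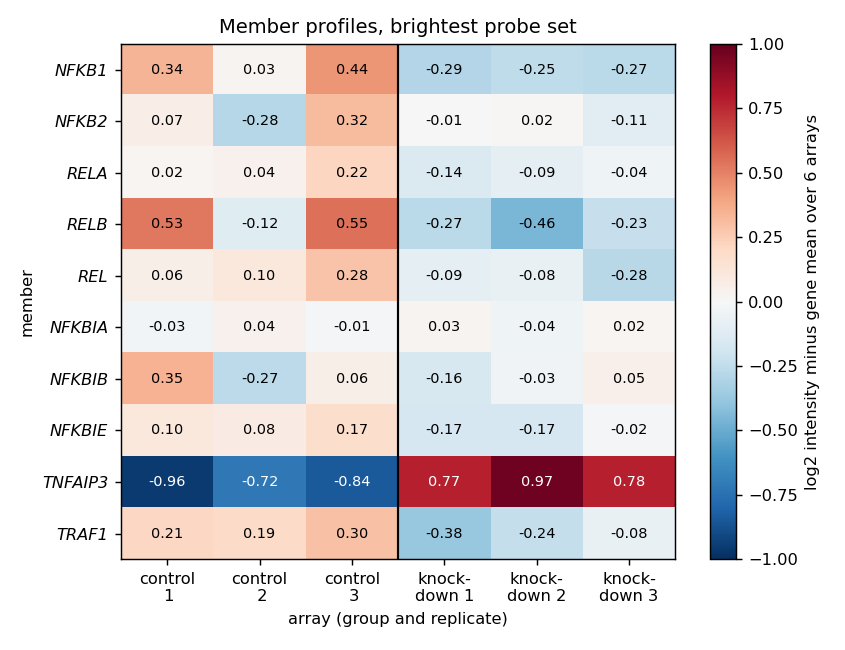
Log2 intensity of each member's brightest probe set minus its own mean over the 6 arrays, with members in rows and arrays in columns, red above and blue below the gene's mean, and a black line between control and knockdown. TNFAIP3 runs from -0.96 to -0.72 in controls and from 0.77 to 0.97 in knockdown arrays, and RELB stands at 0.53 and 0.55 in controls 1 and 3 but at -0.12 in control 2.

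Among the inhibitors, NFKBIA, the IkB-alpha gene and the classical feedback target, gave different pictures at its 3 probe sets. The brightest, which is non-unique, measured 48.5, 50.9 and 49.0 in controls and 50.5, 48.1 and 50.1 in knockdown arrays. The second, also non-unique, measured 30.3, 38.3 and 33.1, then 35.9, 27.3 and 33.7. The third measured 22.5, 22.9 and 26.0 in controls and 19.80, 19.97 and 17.52 in knockdown arrays. The first and the second overlapped between the groups, and the third lay lower in all knockdown arrays. The log2 fold changes were 0.00 ± 0.08, -0.07 ± 0.13 and -0.32 ± 0.10 (SE), and none was called. The size of the difference at NFKBIA therefore depended on the probe set, and only the third was not of the non-unique kind.

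NFKBIE, the IkB-epsilon gene, measured 18.0, 17.8 and 18.9 in controls and 14.9, 14.9 and 16.5 in knockdown arrays. All controls, replicate 2 included, lay above all knockdown arrays. The knockdown level was 84.7% of control, and the log2 fold change of -0.24 ± 0.09 (SE) was not called. It was -0.26 without control 2 and -0.20 against control 2 alone.

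NFKBIB, the IkB-beta gene, overlapped between the groups at all 4 of its probe sets. At the brightest, the controls measured 10.1, 6.56 and 8.23 and the knockdown arrays 7.07, 7.71 and 8.16. Control 2 was the lowest of the 6 arrays there, with a log2 fold change of -0.25 without it and 0.22 against it alone. The log2 fold changes of the 4 probe sets ran from -0.10 to 0.03, each within its SE, which was 0.08 to 0.15.

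TNFAIP3 encodes A20, which removes and edits ubiquitin chains on adaptors such as RIPK1 and so dampens IKK activation. At its brightest probe set, a non-unique one, it measured 8.25, 9.76 and 8.95 in controls and 27.5, 31.4 and 27.5 in knockdown arrays. At the other it measured 6.40, 4.98 and 4.54 in controls and 12.0, 8.71 and 13.5 in knockdown arrays. At both probe sets every knockdown array lay above every control, and control 2 lay with the other controls. The means at the brightest were 8.98 ± 0.76 and 28.8 ± 2.3 (SD, n = 3 each), a 3.21-fold difference, with a log2 fold change of 1.68 ± 0.10 (SE). The other probe set gave 2.14-fold, or 1.09 ± 0.18 on the log2 scale.

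The difference at TNFAIP3 was about as large without control replicate 2. The brightest probe set stood at 1.74 without that array and at 1.56 against it alone, and was called in all 6 fits that left out 1 array, with values from 1.62 to 1.74. The other probe set stood at 1.06 and 1.17, and was called in 3 of the 6, losing its call without control 3, knockdown 1 or knockdown 3. With 16 added to each intensity before the log, which shrinks dim features, the log2 fold change at the brightest was 0.84.

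TRAF1, an adaptor that binds TRAF2 and cellular IAP proteins and is induced by NF-kB, was dim at all 3 probe sets. The brightest measured 4.90, 4.85 and 5.22 in controls and 3.27, 3.61 and 4.03 in knockdown arrays. The controls agreed within 0.37 units and lay above every knockdown array. The difference was -0.46 ± 0.10 (log2, SE), -0.48 without control 2 and -0.42 against control 2 alone. The other 2 probe sets overlapped between the groups, at -0.07 and -0.12, and the mean of the 3 probe sets gave -0.22, below the threshold for a call. Over all members, 8 of the 21 probe sets had a mean below the median probe set, among them all 3 of TRAF1 and both of REL.

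**Figure D3:**
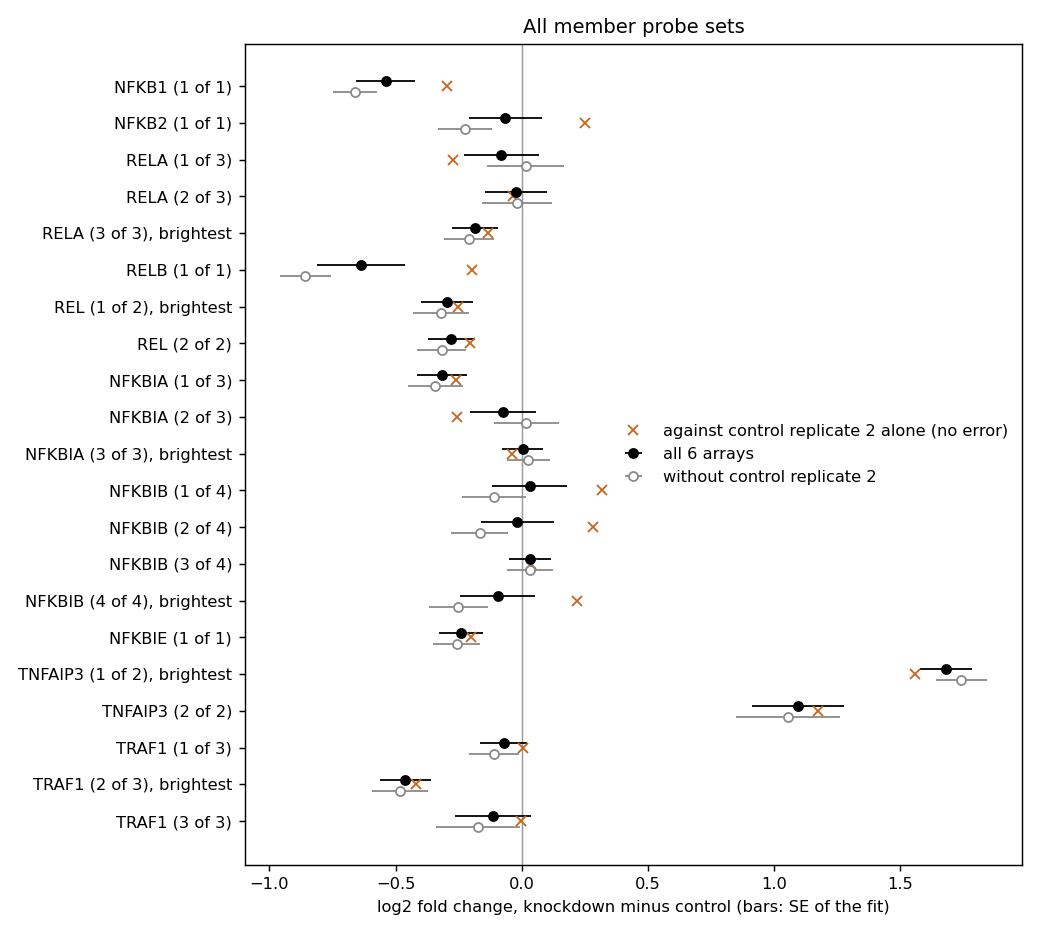
Log2 fold change, knockdown minus control, of all 21 member probe sets. Black points give the fit of all 6 arrays and open grey points the fit without control replicate 2, both with bars of 1 SE, and orange crosses give the difference from control replicate 2 alone, without error. The probe sets of TNFAIP3 stand apart at 1.68 and 1.09, and for NFKB1 and RELB the cross lies nearer to 0 than both points.

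The members fell into different patterns around control replicate 2. At the brightest probe sets of RELA, REL, NFKBIE, TNFAIP3 and TRAF1, control 2 lay nearer to the other controls than to the knockdown arrays. At those of NFKB1, NFKB2, RELB, NFKBIA and NFKBIB it lay nearer to the knockdown arrays. Of these last 5 genes, only at NFKB1 and RELB did it lie between the other controls and the knockdown arrays. At NFKB2 and NFKBIB it was the lowest of the 6 arrays and at NFKBIA the highest, with the groups overlapping at each. These 5 and 5 genes are a description of 1 array, and the cause was not tested.

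The genes with the profile most like a member were taken from 9065 genes at or above the median gene mean. Likeness was the root mean square difference of log2 values centred on each gene over the 6 arrays. Nearest to TNFAIP3 were the potassium channel gene KCNMA1 (0.14), the calcium-binding protein gene CALB2 (0.16) and the linker histone gene H1-2 (0.16). KCNMA1 measured 57.0, 77.2 and 59.1 in controls and 208.4, 187.1 and 209.1 in knockdown arrays. Nearest to NFKB1 were the autophagy receptor gene CALCOCO2 (0.03), CMTM7 (0.03) and EIF2D (0.04). CALCOCO2 measured 190.1, 148.5 and 196.6 in controls and 123.0, 127.1 and 126.6 in knockdown arrays, with control 2 between the groups as for NFKB1. Nearest to NFKBIA were HSP90B1 (0.01), PLPP1 (0.01) and MDH2 (0.02), whose arrays all lay close together.

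The rest of the pathway was followed in 5 lists of 118 genes, written with earlier results of these data known. Of these, 109 were measured here, each at its brightest probe set and tested by limma over all 18132 genes. The other 9 had no probe set paired with their symbol alone: RIPK1, TRAF2, BIRC3, IRAK4, SOD2, CSF2, MAP4K2, MAP4K3 and MAP2K7. Receptors and adaptors held the only genes that rose, 2 of them. Over the 5 lists 9 genes fell, among them MAP4K5, the target of the hairpin, whose fall was set by the design. Over all genes 3.7% were called higher and 4.13% lower, and at an unadjusted p under 0.05 the shares were 12.4% higher and 11.1% lower. Without control replicate 2, 8 genes rose and 30 fell, where 10.5% and 10.1% of all genes were called. Of those 30, 9 were also called lower over all 6 arrays. Control 2 lay nearer to the knockdown arrays than to the other controls in 22 of the 30. Leaving control 2 out favours genes of that kind, so nothing is read from the 22. In the 6 fits that left out 1 array, CXCL8 and MAP4K5 were called each time. The other 9 genes named below lost their calls without any 1 knockdown array and without control 3. Of these 9, CXCL1 alone was still called without control 1. Where a fit of the lists left out non-unique probe sets, a gene was read at the brightest of its remaining probe sets.

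Among 25 receptors, ligands and adaptors, 2 rose, 1 fell and 22 were not called, and without control replicate 2 the counts were 2 and 6. IL1RAP, the accessory chain of the interleukin-1 receptor, measured 48.3, 30.4 and 51.8 in controls and 23.6, 23.3 and 22.6 in knockdown arrays. It fell by 0.87 ± 0.18 (SE, limma adjusted p = 0.0286), and stood at -1.11 without control 2 and at -0.39 against control 2 alone. FADD, the death domain adaptor, measured 131.1, 154.9 and 130.7 in controls and 186.3, 190.8 and 179.2 in knockdown arrays, and rose by 0.42 ± 0.09 (limma adjusted p = 0.0335), or 0.50 without control 2. The interleukin-1 receptor kinase gene IRAK1 measured 168.4, 192.0 and 179.7, then 234.1, 232.2 and 234.0, and rose by 0.38 ± 0.08 (limma adjusted p = 0.0318), or 0.42 without control 2. In these genes control 2 was the control nearest to the knockdown arrays. Against control 2 alone FADD stood at 0.26 and IRAK1 at 0.28. IL1RAP was called at 1 of 4 probe sets and FADD at 1 of 3. The median log2 fold change of the list was -0.10, beside 0.01 over all genes.

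Among 20 genes of the IKK complex, its activating kinases and ubiquitin machinery, 0 rose, 2 fell and 18 were not called, and without control replicate 2 the counts were 1 and 5. At an unadjusted p under 0.05, 2 were higher and 5 lower. BTRC, the F-box subunit that marks phosphorylated IkB for degradation, measured 18.4, 18.7 and 20.3 in controls and 14.6, 11.2 and 14.2 in knockdown arrays. It fell by 0.53 ± 0.12 (limma adjusted p = 0.0329), but stood at -0.22 and lost its call without non-unique probe sets. TANK, an adaptor that binds TRAF proteins and TBK1, measured 50.9, 43.3 and 47.0 in controls and 37.1, 36.4 and 37.2 in knockdown arrays. It fell by 0.35 ± 0.09 (limma adjusted p = 0.0485), and likewise stood at -0.19 and lost its call. Without control 2 TANK stood at -0.40, and against control 2 alone at -0.23. In the fit over all probe sets 0 of the 4 of TANK were called. The kinase subunits CHUK and IKBKB and the scaffold IKBKG were named for their role after their values were seen. They stood at 0.15 ± 0.14, -0.12 ± 0.16 and 0.13 ± 0.09 and were not called. The signs of CHUK and IKBKB turned with the controls used. CHUK stood at 0.28 without control replicate 2 and at -0.12 against that array alone. IKBKB stood at -0.33 ± 0.09 without that array, called lower, and at 0.30 against it alone. The list median was 0.04.

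Among 20 other IkB proteins and negative regulators, 0 rose, 1 fell and 19 were not called, with 2 higher and 4 lower at an unadjusted p under 0.05. Without control replicate 2, 2 rose and 3 fell. The gene that fell was TRAF3IP2, by 0.39 ± 0.08 (limma adjusted p = 0.0289), called at 1 of 2 probe sets. It measured 71.9, 67.5 and 71.5 in controls and 50.4, 55.3 and 55.5 in knockdown arrays, with every control above every knockdown array. TRAF3IP2 encodes the adaptor of interleukin-17 receptors and so activates the pathway in that setting. CYLD and OTULIN, which like A20 cut ubiquitin chains, and the A20 partners TNIP1 and TAX1BP1 were named after their values were seen. They stood at 0.05 ± 0.09, 0.19 ± 0.14, 0.06 ± 0.13 and -0.33 ± 0.12 and were not called. Without control replicate 2 they stood at 0.02, 0.06, 0.10 and -0.46, and TAX1BP1 was then called lower. Against that array alone they stood at 0.12, 0.46, -0.03 and -0.08. The list median was 0.06.

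Among 31 target genes, 0 rose, 3 fell and 28 were not called, with 3 higher and 10 lower at an unadjusted p under 0.05. Without control replicate 2, 1 rose and 13 fell. The gene that rose there was TNFAIP8, named after its values were seen, which stood at 0.62 ± 0.16 over all 6 arrays, not called (limma adjusted p = 0.0503), and at 0.25 against control 2 alone. The chemokine gene CXCL8 measured 161.0, 122.7 and 144.7 in controls and 80.4, 84.7 and 81.1 in knockdown arrays. It fell by 0.79 ± 0.11 (limma adjusted p = 0.00591), was called at all 3 of its probe sets and stood at -0.90 without control 2 and at -0.58 against control 2 alone. CXCL1, a related chemokine, measured 104.4, 138.6 and 116.2 in controls and 80.4, 88.3 and 83.8 in knockdown arrays. It fell by 0.50 ± 0.11 (limma adjusted p = 0.0356), stood at -0.39 without control 2, at -0.72 against control 2 alone and at -0.27, with its call lost, without non-unique probe sets. The survival gene IER3 measured 627.8, 570.5 and 565.0 in controls and 474.1, 451.8 and 471.8 in knockdown arrays. It fell by 0.33 ± 0.08 (limma adjusted p = 0.0449), and its single probe set is non-unique and was not called in the fit over all probe sets. BCL2L1, named after its values were seen, stood at -0.01 at its brightest probe set, a non-unique one, and was not called. Without non-unique probe sets BCL2L1 stood at 0.50 and was called higher. The list median was -0.17, it was -0.10 without control 2 and 0.04 against control 2 alone.

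The list of the TRAF2 to JNK branch held 13 measured genes, the JNK and JUN family genes and ATF2 included. MAP4K5, the target of the hairpin, and ATF2 fell, 0 rose and 11 were not called. At an unadjusted p under 0.05, 1 was higher and 3 lower. Without control replicate 2, 2 rose and 3 fell. ATF2, a transcription factor that JNK phosphorylates, measured 78.7, 83.6 and 69.2 in controls and 53.7, 61.8 and 59.3 in knockdown arrays, and fell by 0.40 ± 0.10 (limma adjusted p = 0.0476). It stood at -0.34 without control 2. Without non-unique probe sets it stood at 0.08 and was not called, and in the fit over all probe sets 0 of its 5 were called. The list median was 0.01.

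**Figure D4:**
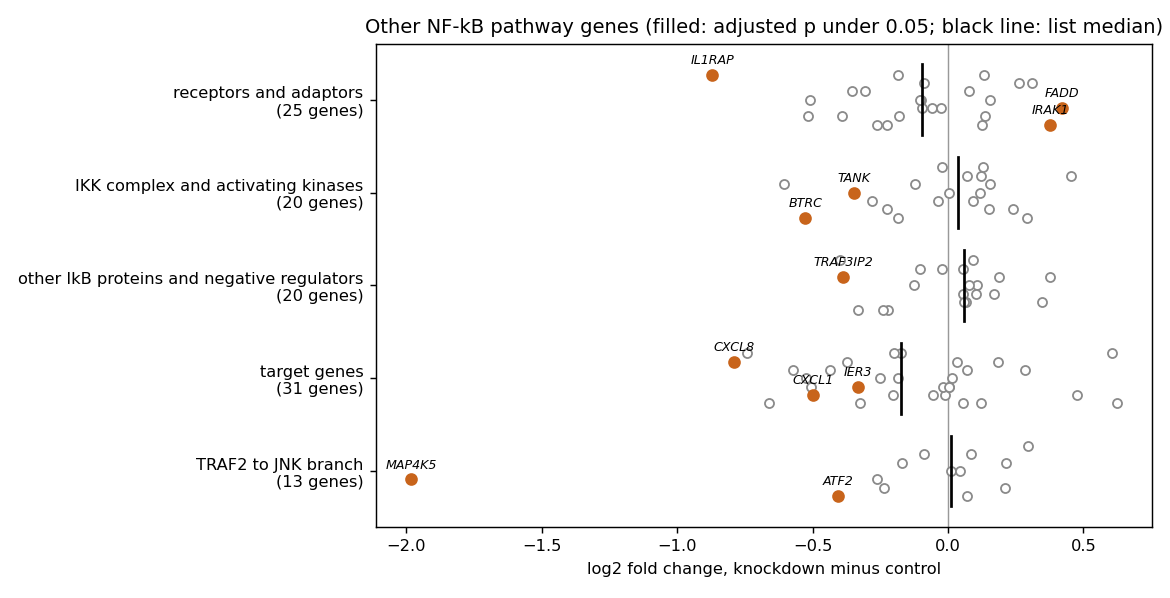
Log2 fold change, knockdown minus control, of the 109 measured pathway genes in 5 lists, 1 point per gene at its brightest probe set. Filled orange points passed an adjusted p of 0.05 over all genes and are named, open points did not, and black lines give list medians, which run from -0.17 for target genes to 0.06 for other IkB proteins and negative regulators.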

How the data were processed

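The deposited intensities, 1 per probe set and not in logs, were summarised by the authors with RMA, per the submitters' processing notes (version not given in the sources used here). RMA corrects background, quantile-normalizes arrays and compresses fold changes of dim probe sets. Values ran from 1.55 to 6658, and array medians from 4.85 to 4.94. No counts or detection calls enter them, so precision is limited by the number of arrays.

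Log2 was taken without a pseudocount. The platform annotation paired 44988 of 49293 probe sets with 1 symbol, 1832 with several and 2473 with none, and 0 symbols changed through Entrez identifiers. Groups were compared by limma 3.58.1 (R 4.3.3, lmFit and eBayes) with Benjamini-Hochberg adjustment over all 49293 probe sets for the members, and over 18132 genes at their brightest probe set for the lists. The fit was tested on simulated arrays. Other steps used Python 3.11.15. Promoters are RefSeq windows, with the array annotation's build not given in the sources used here.

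The members and lists were chosen with earlier results of these data known. Named genes were all members, MAP4K5, up to 3 largest rises and 3 largest falls per list among called genes, and the 3 nearest profiles of TNFAIP3, NFKB1 and NFKBIA. Alternatives were the replicate block, an intensity trend, array weights, 2 renormalizations, a pseudocount of 16, leaving out the lowest 25% or 50% of features, leaving out the non-unique _x_at and _s_at probe sets, probe sets with 1 symbol only, averaging the probe sets of a gene, and leaving out each array.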

Additional observations from a re-analysis of the deposited data

How the results depend on the processing

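Of the 2 member probe sets called higher, 1 remained called with a pseudocount of 16, the brightest of TNFAIP3, and its other probe set lost its call. Without non-unique probe sets the brightest of TNFAIP3 was not in the fit, and its other probe set remained called. The count was 1 to 2 when 1 array was left out. The 2 called lower became 1 with the replicate number as a block (RELB in place of NFKB1 and TRAF1), 1 without the lowest 50% of features (NFKB1), 0 with a pseudocount of 16 (8 at an unadjusted p under 0.05), and 0 to 3 when 1 array was left out. Of the pathway genes, the 2 called higher became 7 with array weights, 5 without the lowest 50% of features, 1 with the probe sets of a gene averaged, and 0 to 8 when 1 array was left out (7 to 19 at an unadjusted p under 0.05). The 9 called lower became 23 with array weights, 4 without non-unique probe sets, 3 with the probe sets of a gene averaged, and 2 to 30 when 1 array was left out, 30 without control replicate 2. Target genes called higher, 0 over all arrays, were 2 with the replicate block and 1 with array weights, repeated quantile normalization, either filter on dim features, or no non-unique probe sets. Without non-unique probe sets that gene was BCL2L1. Averaging the probe sets of a gene ended the call of TRAF1 and called REL lower. ATF2 turned from -0.40 to 0.076 without non-unique probe sets, where another of its probe sets stood for the gene. The cause of the difference between its probe sets, and of the other changes, was not tested. MAP4K5 kept its direction and call under each alternative run. Same-numbered arrays did not pair: the deviations of replicates 1, 2 and 3 correlated at -0.10, 0.03 and 0.095 between the groups, and the replicate block ended the calls of IRAK1, TANK, TRAF3IP2, IER3 and ATF2. Dim members (REL, TRAF1, NFKB2) lie near the median probe set or below it, which limits what their fold changes show. So do the probe sets of NFKBIB other than its brightest. The other probe set of TNFAIP3 was dim in controls too, at 4.54 to 6.40, beside a median probe set mean of 4.88.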

Other observations

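Some pathway genes, chosen after their values were seen, measured lower in control replicate 2 than in the other controls, near the knockdown arrays or, for IL1A, below them. The cytokine gene LIF measured 140.4, 67.6 and 139.3 in controls and 63.7 to 67.9 in knockdown arrays. The stress-induced gene GADD45B measured 100.9, 54.3 and 98.5 in controls and 47.9 to 55.6 in knockdown arrays. The interleukin gene IL1A measured 36.7, 16.1 and 38.5 in controls and 19.2 to 21.1 in knockdown arrays. None of these was called over all 6 arrays, and all were called lower without control replicate 2, where 10.1% of all genes were. Against control replicate 2 alone LIF stood at -0.04, GADD45B at -0.08 and IL1A at 0.30.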
